A study of Mus musculus with 12 samples.

Results

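The genes described here encode the proteins of the cytosolic ribosome, the particle that translates nuclear messenger RNA. They were chosen by name alone: every row of the deposited table named Rpl or Rps with a number and at most a short suffix, and the rows Rplp0, Rplp1, Rplp2 and Rpsa. This gave 84 of the 13232 rows, 36 named for the small subunit and 48 for the large subunit. GENCODE M21 lists 78 of them as protein-coding, 32 small and 46 large, and the other 6 (Rps3a2, Rps3a3, Rps4l, Rps12l1, Rpl6l and Rpl32l) as processed pseudogenes, which are gene copies made from spliced messenger RNA and inserted elsewhere in the genome. All 84 entered the test, which had no filter on low values. Every measured value counts RNA, not protein and not assembled ribosomes.

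The study asked how diet-induced obesity alters the fast response of macrophages to low oxygen. The cells were bone marrow-derived macrophages of wild-type C57B6/J mice, grown with M-CSF at 20 ng/ml, the growth factor that turns marrow precursors into macrophages. The medium held 10% serum until day 4 and none from then on, and on day 7 the cells used here spent 1 h at 1% oxygen. One group of 3 libraries came from mice on a high-fat diet (HFD) and the other 3 from mice on a normal diet (ND); both diets received the same hypoxia, and the 6 libraries at normal oxygen were not analysed here. The labels do not say whether the 3 libraries of a diet came from separate mice, so the p-values below may measure technical spread only. Ribosomal RNA was removed from 100 ng of total RNA, and single reads of 75 bases were sequenced, about 19046400 to 24491500 reads per library as estimated from the steps between the values. The shallowest library was ND replicate 3. A level below is the authors' normalized signal, in which 1 read was worth 0.908 to 1.18. All 8 macrophage markers were listed, with a summed level of 345300 to 395600 in ND and 342900 to 402500 in HFD. Most of this sum is Lyz2, the lysozyme gene, and 2 markers separated the diets: Cd14, a co-receptor for bacterial lipopolysaccharide, by -0.29 with all HFD libraries below all ND libraries (limma, adjusted p = 0.281), and Adgre1, the F4/80 antigen, by 0.16 with all HFD above (limma, adjusted p = 0.520).

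A ribosome holds 1 copy of nearly every one of its proteins, and free surplus protein is degraded, so cells keep the messenger RNAs of both subunits at similar amounts. Many of these messengers begin with a short run of pyrimidines (C or T), which lets the kinase mTOR, through the RNA-binding protein LARP1, set their translation as a group according to nutrients and growth factors. Low oxygen is known to dampen mTOR signalling. The genes are short, highly expressed and spliced, and mammalian genomes carry many processed copies of them, which makes short reads hard to assign.

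The processed copies come first, because they bear on what each row of the table measures. The following stretches of coding sequence, each as long as 1 read, show why. Each set gives the gene and rows related to it, aligned without gaps, and capitals mark bases that differ from the first sequence of the set. Positions are on GRCm38 (mm10). The first set holds Rps3a1, a small-subunit protein gene on the minus strand at chr3:86139170-86139244, its copy Rps3a2 on the minus strand at chr14:88123376-88123450, and its copy Rps3a3 on the plus strand at chr13:108670961-108671035.
Rps3a1: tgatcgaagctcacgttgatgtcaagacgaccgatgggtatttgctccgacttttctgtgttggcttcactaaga
Rps3a2: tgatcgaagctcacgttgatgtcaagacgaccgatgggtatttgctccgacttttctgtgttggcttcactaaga
Rps3a3: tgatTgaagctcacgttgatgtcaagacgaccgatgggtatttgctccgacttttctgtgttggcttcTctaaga
Over these 75 bases Rps3a2 has 0 differences from Rps3a1 and Rps3a3 has 2. A read from this stretch fits Rps3a1 and Rps3a2 equally.

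The second set shows Rps12 on the minus strand at chr10:23785902-23785976, and its copies Rps12l1 on the plus strand at chr7:56014175-56014249 and Rps12-ps3 on the plus strand at chr19:59322530-59322604.
Rps12: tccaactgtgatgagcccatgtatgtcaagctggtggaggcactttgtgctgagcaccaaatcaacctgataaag
Rps12l1: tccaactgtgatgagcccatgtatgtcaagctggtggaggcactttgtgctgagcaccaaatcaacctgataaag
Rps12-ps3: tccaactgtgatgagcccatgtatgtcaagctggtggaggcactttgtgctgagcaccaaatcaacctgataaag
All 3 sequences are the same here. The third set contrasts a copy with a true paralog, a related gene that has diverged: Rps27 on the minus strand at chr3:90212970-90213044, its intronless copy Rps27rt on the minus strand at chr9:114982518-114982592, and the paralog Rps27l on the plus strand at chr9:66947587-66947661.
Rps27: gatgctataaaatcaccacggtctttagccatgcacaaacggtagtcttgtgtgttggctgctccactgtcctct
Rps27rt: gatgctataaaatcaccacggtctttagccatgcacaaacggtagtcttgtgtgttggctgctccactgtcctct
Rps27l: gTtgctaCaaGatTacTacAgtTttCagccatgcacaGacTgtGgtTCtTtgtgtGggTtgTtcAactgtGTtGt
Rps27rt has 0 differences and Rps27l has 21, so reads of the paralog can be told from those of Rps27 while reads of the copy cannot. The fourth set gives the X-linked Rps4x on the minus strand at chrX:102186493-102186567 and the older copy Rps4l on the plus strand at chr6:148355070-148355144, which differs at 17 of the 75 bases.
Rps4x: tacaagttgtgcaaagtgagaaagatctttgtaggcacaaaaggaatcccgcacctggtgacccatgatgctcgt
Rps4l: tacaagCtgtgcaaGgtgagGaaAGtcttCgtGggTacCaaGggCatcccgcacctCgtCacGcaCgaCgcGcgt

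The deposited table held 141 rows taken as copies of 74 of the 78 coding genes. Of these, 137 were matched by sequence, at a median identity of 99.21% and a lowest of 91.96%, and 4 by name only. GENCODE lists 122 of the 141 rows as processed pseudogenes and 8 as transcribed processed pseudogenes, and 58 are named for their parent gene. The copies carried 57.8% of the summed level of genes and copies, with 57.3% to 58.5% in the single libraries. In 47 of the 78 families the copies held over 50% of the level, and in 15 over 90%. The other 4 genes had no listed copy. GENCODE holds 1048 pseudogenes that match the 78 genes at the same thresholds, so levels with copies added cover listed copies only.

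The row of Rps7, a small-subunit protein also known as an MDM2 binder, had a mean level of 67.4 over the 6 libraries. Its copies together reached 5375, or 98.8% of the family, of which Rps7-ps3, matched by name only, held 3770. Rpl38, a large-subunit protein known for its part in translating Hox messengers, stood at 29.04, against 1100 for its copy Rpl38-ps2. Rpl10, which helps join the subunits late in ribosome assembly, stood at 409.1, against 12621 for Rpl10-ps3. The retrocopy Rps3a2 (6456 per kb of transcript) was listed above its parent Rps3a1 (2278 per kb). The row carrying a gene's name was therefore the smaller part of many families. The other end of the range was Rps3, a small-subunit protein at the messenger's entry channel, where the single copy row held 0.933% of the family.

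**Figure D1:**
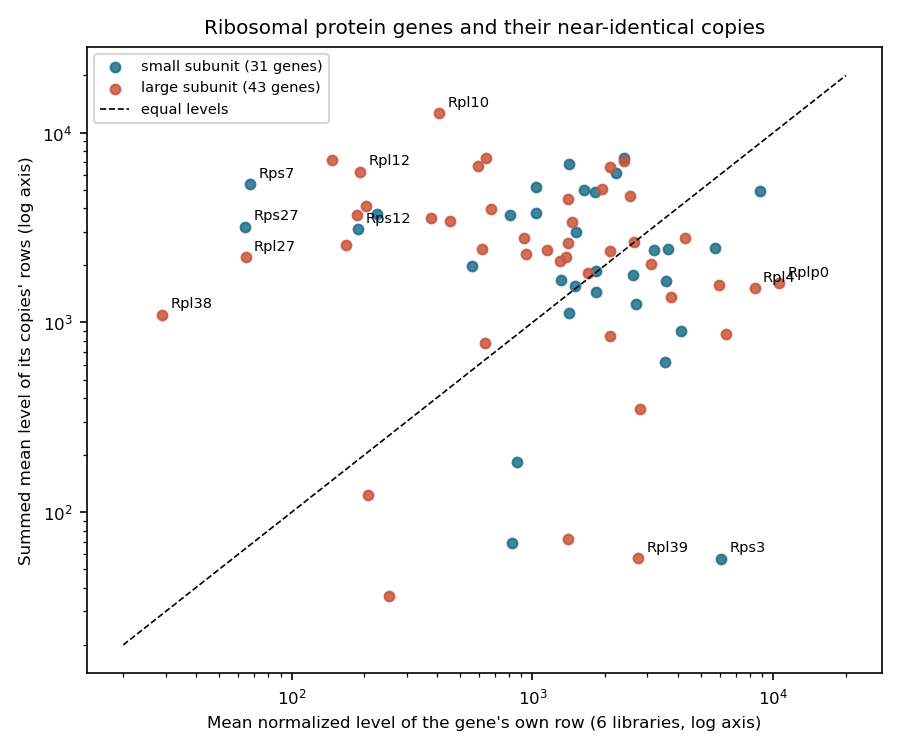
Mean normalized level of a gene's own row (horizontal, log axis) against the summed mean level of its listed copies (vertical, log axis). The points are the 74 coding genes with a listed copy, blue for the small and red for the large subunit. Points above the dashed line of equal levels are the 47 families in which the copies hold over 50% of the level, among them Rpl38 (29.04 against 1100) and Rpl10 (409.1 against 12621).

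Some rows of copies were the same number in every library. The 5 listed copies of Rpl35a had identical values in each of the 6 libraries, and so did Gm11518 and Rpl27-ps3, the copies of Rpl27. Rps12-ps3 stood at 1.45 times Rps12l1 in each of the 6. There were 168 pairs of rows within a family, both with a mean of at least 100. In 12 the ratio varied by under 2% (coefficient of variation over the 6 libraries), against a median of 11.8%. All 12 lie among the copy rows just named. Whole multiples of 1 read, within 0.02 of a read, made up 6.25% to 13.3% of the members' values between 5 and 1000 and 57.0% to 58.4% of those of all genes. For the members most of these values were thus not whole reads. Whether they are reads shared out between rows was not tested. The copy rows of Rpl35a, Rpl27 and Rps12 named above are not independent measurements. Rows of other families may not be independent either.

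Levels can be compared between genes per kilobase of transcript. On this scale the rows of the 78 coding genes had a median of 1850, a middle range of 654.7 to 3602 (5.5-fold) and extremes of 82.25 (Rps7) and 14480 (Rpl41). With the copies' rows added to each gene the median was 6288 and the middle range 4465 to 8321 (1.86-fold), and the extremes were 321.7 (Rpl21) and 16480 (Rpl41). The small subunit had a median of 6703 per kb and the large subunit 5621 with the copies added. Of the 16 genes whose own row fell under 500 per kb, 13 had over 90% of their family's level in copies.

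Among the rows alone, the highest per kb in the small subunit were Rps15 (8302), Rps3a2 (6456) and Rps14 (5976), and in the large subunit Rpl41 (14484), whose product is the shortest ribosomal protein, and the stalk proteins Rplp1 (11934) and Rplp0 (7799). The lowest were Rps4l (42.5), Rps3a3 (71.9) and Rps7 (82.3) in the small subunit, and Rpl38 (84.2), Rpl27 (105) and Rpl32l (139) in the large. Of these 6, Rps7, Rpl38 and Rpl27 stood at 6638, 3271 and 3696 per kb with their copies added. The genes that stayed under 2000 per kb with copies added were 5, the paralogs Rpl7l1, Rpl22l1 and Rps27l, and Rpl21 and Rps20. Rpl21 matches 84 pseudogenes in GENCODE, but only 1 copy was listed, so its sum may be incomplete. The annotated Rps20 transcript used for the length has 3706 bases for a coding sequence of 357, so its per-length value depends on that transcript.

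**Figure D2:**
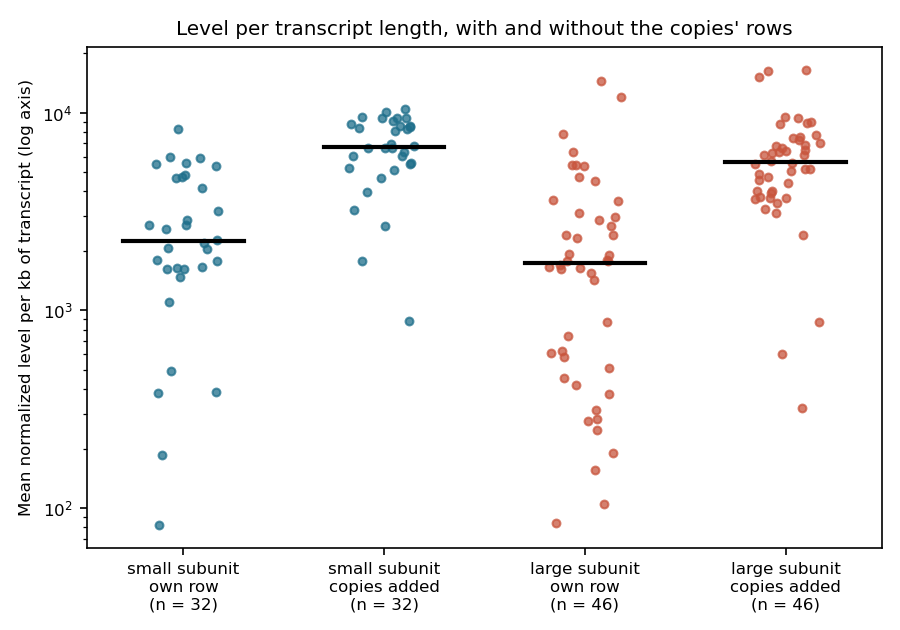
Mean normalized level per kilobase of transcript (log axis) for each coding gene, with the gene's own row and with its copies' rows added; black lines are medians. Adding the copies moved the median from 2235 to 6703 in the small subunit and from 1732 to 5621 in the large, and narrowed the spread between genes.

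Introns of ribosomal protein genes often house small nucleolar RNAs, which guide the modification of ribosomal RNA. In GENCODE, 29 of the 78 genes contained at least 1 snoRNA gene, 55 in all, with 19 in 10 small-subunit and 36 in 19 large-subunit genes. Rpl4 held 5 and Rpl13a held 4. Libraries of total RNA can carry such intron RNA, and its part in the levels was not tested.

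The paralog pairs were unequal. Rps27l stood at 1786 per kb with its copy added, against 9443 for Rps27 with its copy. Rpl22l1 stood at 600.3 per kb against 3113 for Rpl22, the gene it can replace in some tissues, and Rpl7l1, a nucleolar relative of Rpl7, at 878 against 4425. Rps4l, at 42.5, was far below Rps4x with its copies at 8438. With all libraries weighted equally, none of these genes differed between diets at an adjusted p under 0.05. With array weights, which let libraries count unequally, the Rpl7 row gave -0.188 (limma, adjusted p = 0.0457). In that fit 8.56% of all genes passed.

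The letters at the start sites are shown because the pyrimidine run, where a gene has one, lies there. RefSeq promoter entries (GRCm38.p6) matched 59 of the 78 coding genes. The stretches below, 15 bases before the annotated start and 15 from the start on, belong to the 4 genes of each subunit with the highest own-row level per kb and an entry. Capitals mark the unbroken run of C or T that covers the start base. The genes are Rpl41 (minus strand, chr10:128549154-128549183), Rplp0 (plus, chr5:115559452-115559481), Rpl4 (plus, chr9:64173372-64173401) and Rpl15 (minus, chr14:18270972-18271001) of the large subunit, and Rps15 (plus, chr10:80292416-80292445), Rps4x (minus, chrX:102189377-102189406), Rpsa (plus, chr9:120127751-120127780) and Rps9 (plus, chr7:3704026-3704055) of the small.
Rpl41: cacacgggccggctcggaagtgacgacacc
Rplp0: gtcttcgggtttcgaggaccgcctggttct
Rpl4: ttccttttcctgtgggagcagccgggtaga
Rpl15: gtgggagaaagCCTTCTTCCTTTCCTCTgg
Rps15: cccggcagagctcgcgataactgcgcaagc
Rps4x: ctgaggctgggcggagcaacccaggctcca
Rpsa: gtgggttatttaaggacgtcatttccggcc
Rps9: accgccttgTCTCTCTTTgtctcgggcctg
Only Rpl15 and Rps9 of these 8 have such a run across the annotated base. In Rpl4 a run of 14, which begins upstream of the letters printed here, ends before the annotated start. Annotated starts can lie some bases off the start used in the cell, so a missing run says only that these letters are not at this base.

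A run of at least 5 C or T from the start base on was found in 15 of the 59 genes (25.4%), against 4.36% of all 27025 RefSeq promoters and 3.96% of those of 9021 genes in the table. A run of at least 10 that touched the 10 bases on either side of the start, and could reach beyond the stretch printed here, was found in 33.9% of the genes and 6.83% of all promoters. The small and the large subunit had the run of 5 in 7 of 24 and 8 of 35 genes. Within 250 bases before and 50 after the start, on either strand, the letters CCGGAAG (the core read by ETS-family factors) occurred in 40.7% of the genes, 9.12% of all promoters and 20.1% of those of table genes. AAGATGGC (a YY1 core) occurred in 8.47%, 2.88% and 5.21%, and TATAAA in 8.47%, 14.2% and 6.92%. These counts describe letters and were not set against the diet.

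Between the diets, no ribosomal protein gene passed the test with all libraries weighted equally, and the median difference was slightly below 0 in both subunits, while the library averages by rows overlapped between the diets. The median log2 fold change (HFD minus ND, of level + 1, so that folds of weakly expressed genes come out too small) was -0.061 over the 84 rows, against -0.0034 over all genes. The small-subunit median was -0.061 and the large-subunit median -0.060. Of the 84 rows, 61 were lower and 23 higher; the share lower among all genes was 51.1%. The test was limma, which with Benjamini-Hochberg adjustment over all genes called 0 of 84 members and 0 of 13232 rows (0%). Without adjustment, 10 members had a p under 0.05 and were lower, against 5.18% of all genes lower at that threshold. At the same threshold 0 members were higher, against 5.4%. In either direction it was 11.9% of members, against 10.6% of all genes, a share near the background. These 10 were 6 of the small and 4 of the large subunit. The 6 include the processed pseudogenes Rps3a2 and Rps12l1. Among coding genes the calls were 4 of 32 small (12.5%) and 4 of 46 large (8.7%). Refitting with ND replicate 1 dropped, the count at that threshold in either direction was 6, against 5.29% of all genes. It was 4 with HFD replicate 2 dropped, against 5.49%, and 16 with HFD replicate 3 dropped, against 9.17%. Without limma's trend of spread with level it was 6, against 9.5%. With array weights, which let libraries count unequally, it was 21, of which 4 were higher, against 27.6%, and 9 members had an adjusted p under 0.05 (limma), against 8.56% of all genes. All 3 HFD libraries lay below all 3 ND libraries in 12 members, against 7.07% of all genes, and above them in 3, against 7.44%. Leaving out ND replicate 3 gave 1 member an adjusted p under 0.05 (limma), against 1.76% of all genes. The unadjusted count was then 11 (13.1% of members), against 17.5% of all genes. It was 9 (10.7%) with HFD replicate 1 dropped, against 12.6%, and 9 (10.7%) with ND replicate 2 dropped, against 8.01%. In bulk RNA a smaller share of cells of one type and less RNA per cell cannot be told apart.

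Adding each gene's copies to its own row, a choice made after seeing the data, gave narrower errors (median SE 0.067 against 0.086 for the same coding genes by row) and a more uniform picture. The 78 genes then had a median of -0.086, against -0.0028 for all 13085 rows so formed. Of the 78, 69 were lower and 9 higher, where 50.9% of all rows were lower. In 28 genes all 3 HFD libraries lay below all 3 ND libraries, against 7.12% of all rows; in 1, Rpl27, all lay above, against 7.48%. An unadjusted p under 0.05 was reached by 12 genes, all lower, against 5.12% of all rows, and by 0 genes that were higher, against 5.46%. No adjusted p was under 0.05 (limma, 0% of all rows, lowest member value 0.276 for Rps27a). In refits with 1 library dropped, the count was 5 for ND replicate 1 (5.27% of all rows in that refit). It was 6 for HFD replicate 1 (12.7%) and 7 for HFD replicate 2 (5.5%). It was 10 for ND replicate 2 (8.01%), 11 for ND replicate 3 (17.6%) and 11 for HFD replicate 3 (9.06%). It was 21 with quantile normalization (10.6% of all rows) and 22 after scaling to a total without members, mitochondrial and the 50 highest genes (11.0%), all lower. With array weights it was 23, of which 3 were higher (27.8%), and 5 genes had an adjusted p under 0.05 (limma, 9.01% of all rows).

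The medians of the subunits were similar, and no test of a difference between them was made. With copies added, 29 of 32 small-subunit genes were lower (median -0.080) and 40 of 46 large-subunit genes (median -0.087). All HFD libraries lay below all ND libraries in 9 small-subunit and 19 large-subunit genes. The 9 were Rpsa, Rps3a1, Rps6, Rps9, Rps13, Rps23, Rps24, Rps27 and Rps27a. The 19 included Rpl3, Rpl6, Rpl7, Rpl7a, Rpl11, Rpl12, Rpl13a, Rpl17, Rpl21, Rpl22l1, Rpl29, Rpl30, Rpl32, Rpl34, Rpl35, Rpl35a, Rpl36 and Rpl38. The 9 genes that were higher were Rps15a, Rps27l, Rps29, Rpl4, Rpl7l1, Rpl27, Rpl39, Rplp1 and Rplp2, from 0.0032 (Rps15a) to 0.11 (Rpl27). Averaged over genes with copies added, the log2 level centred on each gene's own mean was 0.030, 0.021 and 0.069 in the ND libraries, in replicate order, and -0.069, -0.020 and -0.030 in the HFD libraries. The diets did not overlap on this average, nor did they in the small or the large subunit alone. By own rows they did overlap: the average over the 84 rows was 0.015, -0.018 and 0.091 in the ND libraries, again in order, and -0.052, -0.032 and -0.0053 in the HFD libraries. In the small subunit by rows, ND replicate 2 (-0.014) lay below HFD replicate 3 (0.012), and in the large subunit below HFD replicate 2 (-0.0010). With copies added, ND replicate 3 was the highest library and HFD replicate 1 the lowest in both subunits. The small minus large average stayed between -0.019 and 0.020 in all 6 libraries, and the summed small-subunit level was 0.715 to 0.744 of the large-subunit level.

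The share of the total signal was also lower. With copies added, the family took 1.79%, 1.76% and 1.79% of all signal in the ND libraries and 1.64%, 1.67% and 1.69% in the HFD libraries. The means were 1.78 ± 0.019% in ND and 1.67 ± 0.024% in HFD (SD, n = 3 each), and no HFD library reached an ND library. By own rows alone the shares were 0.780 ± 0.018% and 0.740 ± 0.0090% (SD, n = 3 each), again without overlap.

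**Figure D3:**
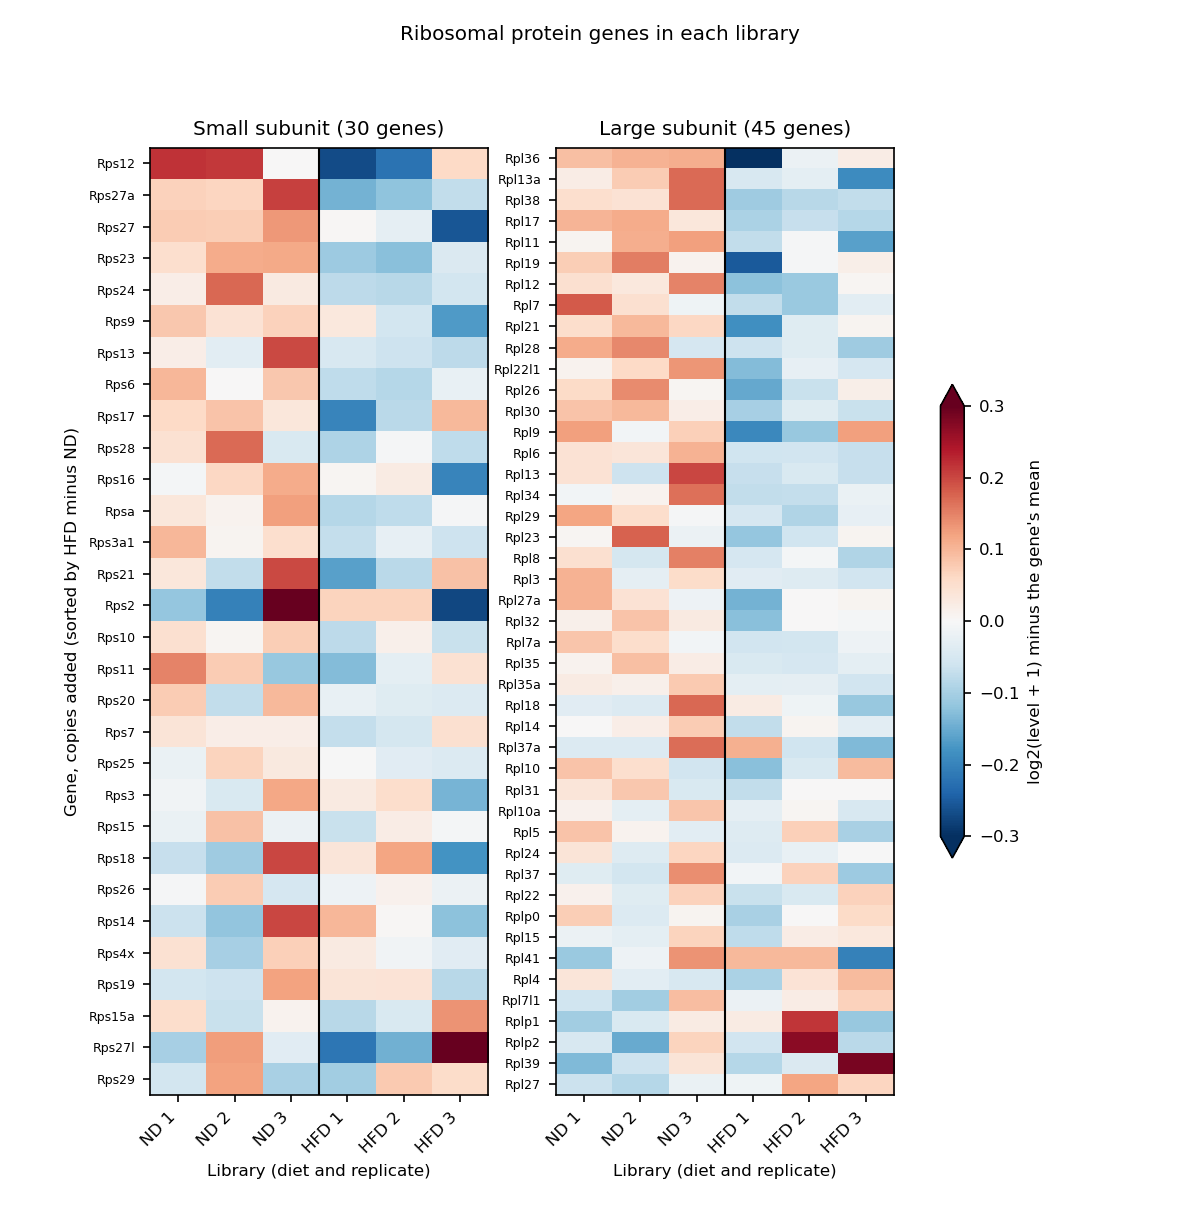
Heat map of log2(level + 1) minus the gene's mean over the 6 libraries for the 30 small-subunit and 45 large-subunit coding genes drawn, with copies added, sorted by the HFD minus ND difference; red is above and blue below the gene's mean, and colours end at 0.3 in either direction. Rows near the top are mostly red in ND and blue in HFD, and 69 of the 78 genes were lower in HFD. In Rps12 and Rpl36, sorted first, HFD replicate 3 does not lie below the gene's mean.

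The single genes follow by role, and the values are levels with copies added unless a sentence says otherwise. Rps27a encodes ubiquitin fused to a small-subunit protein and so feeds the ubiquitin pool as well. Its level was 6916, 6898 and 7599 in ND and 5976, 6064 and 6266 in HFD, a difference of -0.22 ± 0.062 (log2, SE; limma, adjusted p = 0.276). Every HFD library was below every ND library. Its own row gave -0.29 (adjusted p = 0.323), its copy Gm8430 -0.32 and its copy Rps27a-ps2 0.011, so the rows of 1 family gave different values.

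Rps12, a small-subunit protein near the decoding side of the particle, had the largest difference of the 78 genes. Its level was 3794, 3778 and 3265 in ND and 2710, 2800 and 3402 in HFD, a difference of -0.29 ± 0.096 (log2, SE; limma, adjusted p = 0.351). The diets overlapped, since HFD replicate 3 lay above ND replicate 3. The copies carried this value: the retrocopy row Rps12l1 gave -0.29, Rps12-ps3 -0.29 and the row named Rps12 itself 0.17.

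Rps23, which lies at the decoding centre, had 6415, 6686 and 6705 in ND and 5744, 5677 and 6009 in HFD. The difference was -0.18 ± 0.057 (log2, SE; limma, adjusted p = 0.313) without overlap. Rps27, a zinc-finger protein of the small subunit, had 3420, 3417 and 3552 in ND and 3252, 3188 and 2717 in HFD, a difference of -0.19 ± 0.076 without overlap. Its paralog Rps27l, a target gene of p53, had a difference of 0.0056 ± 0.14. HFD replicate 3 was the highest of all libraries for Rps27l (1141) and the lowest for Rps27.

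Rps6, the ribosomal protein that S6 kinase phosphorylates, had 8866, 8276 and 8753 in ND and 7848, 7791 and 8143 in HFD. Its difference was -0.12 ± 0.059 without overlap. Rpsa, the laminin receptor homolog that serves as a small-subunit protein, stood at 14016, 13792 and 14907 in ND and 12899, 12987 and 13669 in HFD, a difference of -0.11 ± 0.064, again without overlap. Rps18, often used as a reference gene, had a difference of -0.017 ± 0.10, and its level ranged over 2834 to 3507 in ND and 2694 to 3313 in HFD.

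Other small-subunit genes picked by the naming rule are given by their own rows. Rps28 had 632, 618 and 592 in ND and 512, 460 and 567 in HFD, a difference of -0.26 ± 0.089 (limma, adjusted p = 0.355) without overlap, but with its 2 copies added the difference was -0.11 and the diets overlapped. Rps3a2 differed by -0.18 ± 0.062 without overlap. Rps9 and Rps16 differed by -0.18 and -0.21, with overlap between diets. With copies added they differed by -0.13 and -0.11. Rps15, Rps14 and Rps4x, among the highest per kb, differed by -0.045, -0.014 and -0.020, each by less than its SE. The low rows Rps4l (0.45 ± 0.35) and Rps3a3 (-0.16 ± 0.25) had errors too wide to tell a direction.

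In the large subunit, Rpl13a, which also takes part in interferon-driven control of inflammatory messengers in myeloid cells, had 5176, 5372 and 5735 in ND and 4932, 4996 and 4475 in HFD. The difference was -0.18 ± 0.068 (limma, adjusted p = 0.401) without overlap, and the row alone gave -0.19. Rpl11, a 5S RNA partner and MDM2 binder, had 3928, 4212 and 4250 in ND and 3711, 3895 and 3491 in HFD, a difference of -0.16 ± 0.065 without overlap. The row named Rpl11 gave 0.12 ± 0.25 and its direction changed without ND replicate 1 or HFD replicate 2. Rpl38 had 1166, 1160 and 1267 in ND and 1045, 1062 and 1070 in HFD, a difference of -0.18 ± 0.064 without overlap.

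Rpl17, at the exit of the peptide tunnel, differed by -0.17 ± 0.056 without overlap, from a mean of 7726 in ND to 6882 in HFD. Rpl36 had the largest difference of the large subunit, -0.20 ± 0.087 without overlap, with means of 1507 in ND and 1317 in HFD. Its lowest library was HFD replicate 1 (1137), and the other HFD libraries stood at 1387 and 1426. Rpl12, a protein of the stalk base, turned from 0.24 by its own row to -0.15 with its copies, which held 97.0% of the family. Rpl29, Rpl7 and Rpl13 by their own rows differed by -0.19, -0.14 and -0.27, the first pair without overlap between diets and Rpl13 with it. With copies added these genes differed by -0.11, -0.14 and -0.12. Leaving out 1 library, the Rpl13 row ran from -0.373 to -0.144.

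The acidic stalk proteins, which bind the elongation factors, were among the few genes that were not lower. Rplp1 had 6994, 7278 and 7643 in ND and 7643, 8723 and 6942 in HFD, a difference of 0.084 ± 0.085. Rplp2 had 970, 902 and 1050 in ND and 963, 1209 and 947 in HFD, a difference of 0.088 ± 0.10. In both, HFD replicate 2 was the highest library, and without it the own rows turned to -0.025 and -0.026. Rplp0, the stalk's base and a common reference gene, differed by -0.027 ± 0.067.

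Rpl27 was the only gene of the 78 with all HFD libraries above all ND libraries. It stood at 2166, 2137 and 2237 in ND and 2246, 2460 and 2370 in HFD, a difference of 0.11 ± 0.060 (log2, SE; limma, adjusted p = 0.560). Its own row, at a mean of 64.5, gave -0.053 ± 0.32. Rpl39, a small tunnel protein, differed by 0.10 ± 0.098 and rested on HFD replicate 3 (3401, with the other 5 libraries at 2546 to 2871). Rpl41 differed by -0.0051 ± 0.096.

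**Figure D4:**
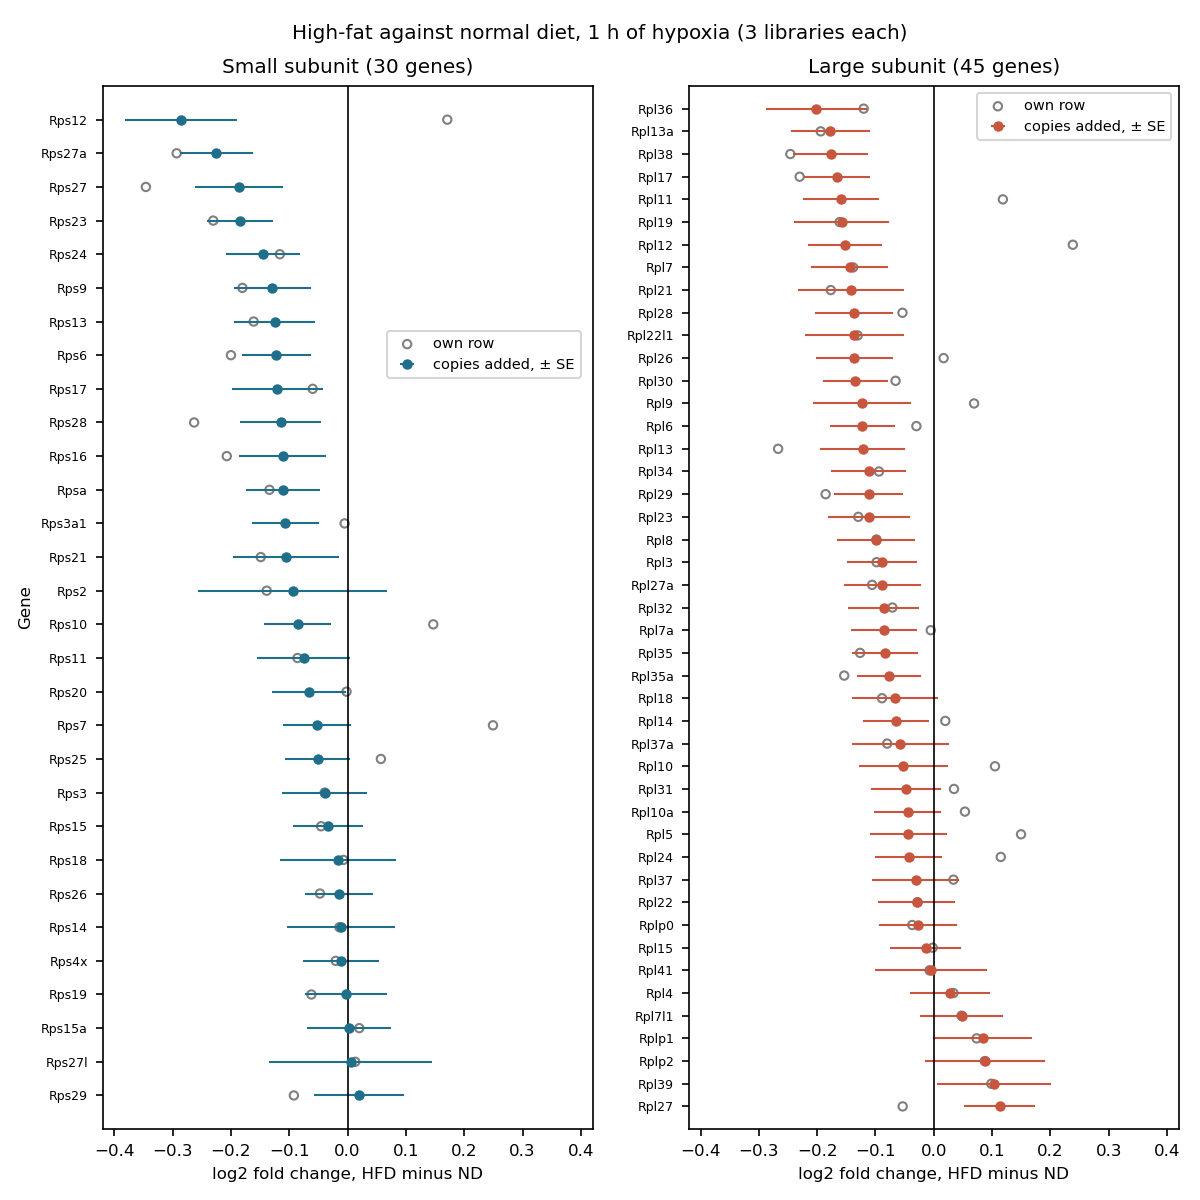
log2 fold change (HFD minus ND) of the 30 small-subunit and 45 large-subunit coding genes drawn, with copies added (filled points, bars ± SE of limma) and of the gene's own row (open circles). Filled points run from -0.29 (Rps12) to 0.02 (Rps29) and from -0.20 (Rpl36) to 0.11 (Rpl27), and open circles lie on the other side of 0 for genes such as Rps7 (0.25 against -0.052) and Rpl12 (0.24 against -0.15).

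Other genes of translation were read from the same fit by rows. Of 14 further ribosomal proteins and fusion genes, 10 were listed, but 5 of these are members already described and 1, Rps27rt, is the copy of Rps27, so the list adds 4 genes. Among them Rack1, a signalling scaffold on the small subunit, gave -0.053, Fau, a ubiquitin-like fusion, -0.014 and Rpl36al, a relative of Rpl36a, -0.059, with no adjusted p under 0.05 (limma).

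The 23 translation factors had no common direction: 12 were lower, 11 higher, and the median was -0.0090. One had an unadjusted p under 0.05, against 5.18% of all genes lower at that threshold: Eef1d, a subunit of the elongation factor exchange complex, at -0.17 (limma, adjusted p = 0.465), and the helicase gene Eif4a1 stood at 0.16. The elongation factors Eef1a1 and Eef2, whose messengers begin with the same pyrimidine run, gave -0.022 and -0.051.

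Ribosome biogenesis genes, which make and modify ribosomal RNA and assemble the subunits, were more often higher than lower. Of 46, 35 were higher in HFD and 11 lower, with a median of 0.10, where 51.1% of all genes were lower. An unadjusted p under 0.05 was reached by 3 of the 46, all higher, against 5.4% of all genes higher at that threshold, a share near the background. Rrp12, an export factor of pre-ribosomes, stood at 188, 154 and 205 in ND and 241, 239 and 278 in HFD, a difference of 0.47 ± 0.13 (limma, adjusted p = 0.281) without overlap. Nop10, of the pseudouridine-making particle, differed by 0.33 ± 0.14. As a group the diets overlapped: the centred average was -0.099, -0.14 and 0.088 in the ND libraries, in replicate order, and -0.068, 0.060 and 0.16 in the HFD libraries. ND replicate 3 thus lay with the higher HFD libraries here, while for the ribosomal proteins it was the highest ND library.

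Of 27 listed genes of the mTOR and MYC pathways, 15 were higher and 12 lower, with a median of 0.018. Mlst8, a shared subunit of the mTOR complexes, had 308, 273 and 303 in ND and 327, 364 and 340 in HFD, a difference of 0.22 ± 0.092 (limma, adjusted p = 0.437). Deptor, an mTOR inhibitor, differed by -0.24 and Larp1b by -0.28, both with overlap, and Larp1 itself by 0.11 ± 0.065. The 7 genes of the p53 response to ribosome defects had 3 lower and 4 higher, with Phlda3 at -0.23 and Zmat3 at -0.091, and 0 with an unadjusted p under 0.05.

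**Figure D5:**
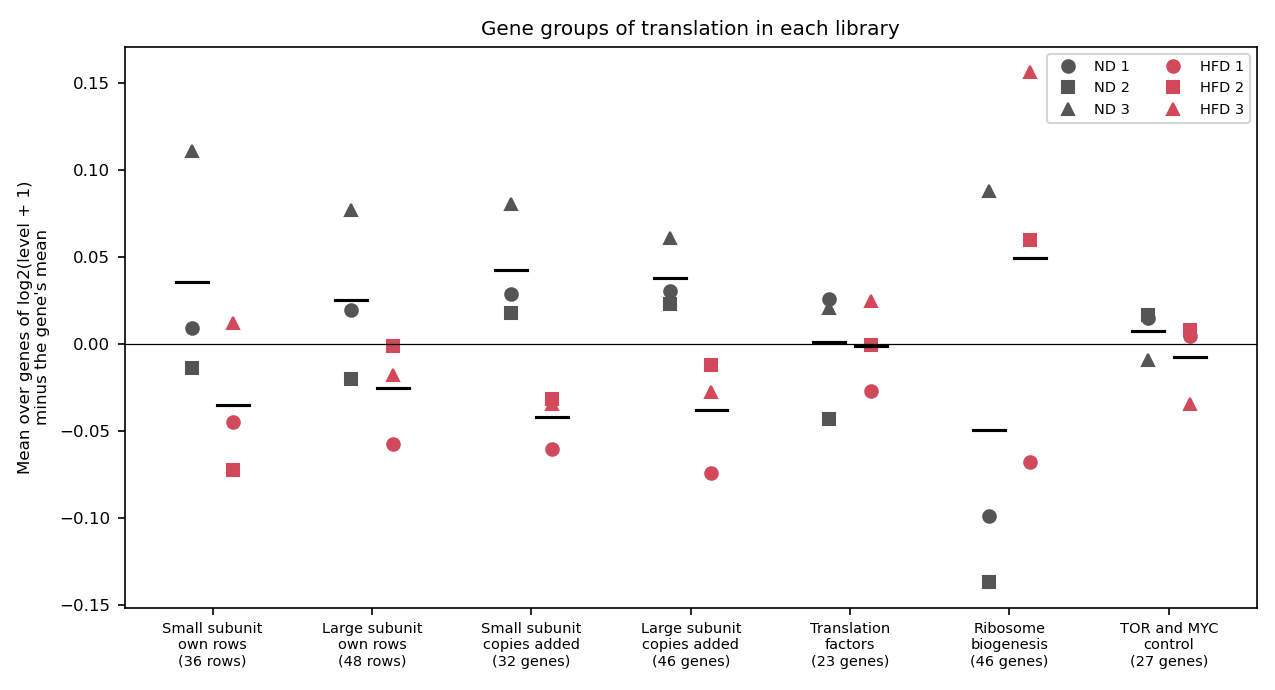
Mean over the genes of a group of log2(level + 1) minus the gene's mean, for each library (grey ND, red HFD; circle, square and triangle for replicates 1, 2 and 3; black bars are diet means). With copies added the diets do not overlap in either subunit (small subunit 0.018 to 0.080 in ND and -0.061 to -0.032 in HFD); by own rows they overlap in both, as they do for the other 3 groups, which are also read by rows.

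Markers of other cells were listed in part. Of 10 neutrophil genes, 6 were listed, all higher in HFD (median 0.30), with a summed level of 1712 to 2455 in ND and 2109 to 3430 in HFD. Mmp8, a neutrophil collagenase, stood at 443, 463 and 452 in ND and 707, 1032 and 834 in HFD, a difference of 0.90 (limma, adjusted p = 0.113) without overlap, while the diets overlapped in the other 5. Of 8 stromal genes, 3 were listed, all lower, with 177.5 to 548.6 in ND and 51.76 to 336.8 in HFD. One of 6 mast cell genes, Kit, was listed, at 116.9 to 225.5 in ND and 72.38 to 104.4 in HFD. Of 7 dendritic cell genes, 2 were listed, with a sum of 2008 to 3005 in ND and 2806 to 3734 in HFD. They differed in opposite directions: Itgax, an integrin that macrophages also carry, by 0.90 (limma, adjusted p = 0.270) and Bst2, an interferon-induced membrane protein, by -0.36 (limma, adjusted p = 0.195), with all HFD libraries below all ND libraries. Of 8 B cell genes, Ighm (-0.40) and Igkc (0.75) were listed, with a sum of 1915 to 3077 in ND and 1918 to 2149 in HFD. Of 8 T cell genes only Cd4 was listed, at 201.9 to 355.9 in ND and 98.07 to 230 in HFD. Of the erythroid and adipocyte lists, 0 of 8 and 0 of 5 genes were listed. The 8 proliferation genes summed to 16780 to 20690 in ND and 17050 to 22880 in HFD. The sum is led by Pcna, a replication clamp, at 0.29, but 5 of the 8 were lower, with a median of -0.060. An unadjusted p under 0.05 was reached by 2, both lower, against 5.18% of all genes: Birc5, a mitotic survivin, at -0.28 with all HFD libraries below all ND libraries (limma, adjusted p = 0.354), and Ccnb1, a mitotic cyclin, at -0.31 (limma, adjusted p = 0.423). The part of these cells or of growth state in the ribosomal protein differences was not tested.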

How the data were processed

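Gene-level RNA values of 6 libraries, 3 per diet, were used as the authors deposited them. The deposited unit is a signal: estimated gene counts divided by a size factor per library, as read from the values. STAR, Partek and mm10 are named in the submitters' processing notes; the counter, annotation and filters are not given in the sources used here. The table marks the other diet NC, read here as the normal diet. The values are fractional, so the count test foreseen for whole counts gave way to its planned fallback.

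log2(value + 1) was compared between diets with limma 3.58.1 in R 4.3.3 (mean-variance trend, two-sided, Benjamini-Hochberg over all 13232 rows, threshold 0.05). SE is limma's. GENCODE M21 matched 12964 rows (98.0%) and gave transcripts and gene types. A row counted as a copy where its transcript matched a coding gene's transcript at 90% identity or more over 50% or more of the copy (BLAST 2.17.0), or by name where unlisted (4 rows). The 30-base start stretches and motif shares used RefSeq promoters. Protein sequences were not used here. Some single genes are not reported here; they stay in all counts, medians and shares.

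Named members were the largest changes, the smallest p, the highest and lowest per kb in each subunit, paralog pairs and fixed genes; Rps12, Rps23, Rpl36, Rpl39 and the copies were named after their values were seen, as were Eef1a1, Eef2, Larp1, Mlst8 and genes named only for their copies or start sites. Members and lists were chosen with earlier results of these data known. Replicate numbers were checked as pairs: residuals of libraries with the same number correlated at -0.0086, -0.037 and -0.00069, so no pairing was assumed. The fit was tested on simulated data with known changes. Reads carried no molecular identifiers, so depth covers counting error only. Alternatives covered the pseudocount, filters, scaling, trend, weights, block, GC content and length, copies and leaving out each library.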

Additional observations from a re-analysis of the deposited data

How the results depend on the processing

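The members' median stayed below 0 under every alternative run. Leaving out 1 library at a time, it ran from -0.077 to -0.047 by rows (small -0.088 to -0.054, large -0.081 to -0.033) and from -0.094 to -0.070 with copies added (small -0.10 to -0.056, large -0.094 to -0.081). Members lower in HFD then numbered 50 to 63 by rows (small 21 to 30, large 29 to 34) and 59 to 72 with copies added (small 24 to 30, large 35 to 42). Counts of an adjusted p under 0.05 were 0 to 1 by rows (large 0 to 1) and 0 with copies added. Counts of an unadjusted p under 0.05 were 4 to 16 by rows (small 0 to 9, large 3 to 7) and 5 to 11 with copies added (small 2 to 5, large 2 to 7); the share difference was -0.0495 to -0.032 percentage points. With array weights (ND replicate 3 at 0.441, HFD replicate 2 at 3.09) adjusted calls became 9 by rows (small 6, large 3) and 5 with copies added (small 3, large 2), and unadjusted ones 21 (small 11, large 10) and 23 (small 8, large 15), of which 4 and 3 were higher. In those same fits all genes had 8.56% and 9.01% adjusted and 27.6% and 27.8% unadjusted calls, against 25% and 29.5% of the members unadjusted. Without the trend the unadjusted counts by rows were 6 (7.14%, against 9.5% of all genes) and, for the large subunit, 2. With the trend, adding copies gave the large subunit 7. With copies added, scaling to the total without members, mitochondrial and the 50 highest genes gave a median of -0.111 (large -0.112) and 22 unadjusted calls (small 8, large 14), and quantile normalization gave 21 (small 8, large 13), against 11.0% and 10.6% of all rows in those fits. The share difference was -0.0404 percentage points, -0.057 without mitochondrial and the 10 highest genes in the total and -0.111 with copies added. With the replicate block the median was -0.061, with 0 adjusted and 8 unadjusted calls (9.52% of members, against 11.4% of all genes, of which 0.234% had adjusted calls); the samples share only a number. Of 786 values of 47 named genes, 35 reversed and 11 passed the threshold. With array weights, where 8.56% of all genes passed, they included Rps27a, Rps12l1, Rps28, Rps3a2, Rpl29, Rpl7, Rps6, Rrp12 and Deptor. Copies added turned Rpl12 to -0.152, Rps7 to -0.052, Rpl27 to 0.113 and Rpl11 to -0.160. Array weights turned Rps14 to 0.0443, Rpl41 to 0.0902, Rpl27 to 0.0906, Rpl32l to 0.0836, Rps27l to -0.0527, Rps18 to 0.102 and Fau to 0.0754; the scaling without the highest genes turned Rps27l to -0.012. Leaving out 1 library gave ranges across 0 for Rpl38 (-0.733 to 0.0246), Rps14 (-0.0735 to 0.0829), Rpl41 (-0.0631 to 0.0811), Rplp1 (-0.0251 to 0.172), Rplp0 (-0.0764 to 0.0080), Rps3a3 (-0.428 to 0.0392), Rpl27 (-0.372 to 0.259), Rps27l (-0.169 to 0.123), Rps4x (-0.0714 to 0.0105), Rplp2 (-0.0257 to 0.150), Rps18 (-0.0630 to 0.0727), Rpl11 (-0.114 to 0.460) and Fau (-0.0839 to 0.106). These ranges, and the array-weight and scaling values of single genes, are for own rows without copies added. The Rpl38 row had a mean level of 29.04. The causes were not tested. The count-based alternative was not run, since the values are not counts.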
